A study of Homo sapiens with 54 samples.

Results

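The integrin subunit genes ITGA1, ITGA2, ITGA3, ITGA5, ITGA6, ITGAV, ITGB1, ITGB3, ITGB4 and ITGB5 were followed in MDA-MB-231 cells, an established human triple-negative breast cancer line, treated with Compound Kushen Injection (CKI) or with mixtures of its components. These 10 genes of the 27978 in the count table were taken by name, by a rule that uses no measured value but was written with earlier results of these data known. All 10 had enough counts to be tested in each block of libraries. CKI, an extract of medicinal plant roots, was given at 2 mg/ml, and the mixtures at the dose equivalent to it. Reads from polyadenylated RNA had been counted per gene in 54 libraries, in 18 groups of 3. A block is the set of libraries that share a time and a batch, as named in the labels. The block at 24 h and the first of the blocks at 48 h belong to batch 1, and each held untreated cells, CKI, OmtOspc, MacOmtOspc, N-OmtOspc and N-MacOmtOspc. The other block at 48 h is batch 2 and held untreated cells, CKI, N-Mac, N-Nme, N-Omt and N-Tri. The abbreviations were read from the compound list of the study. Omt is oxymatrine, Ospc oxysophocarpine, Mac macrozamin, Nme N-methylcytisine and Tri trifolirhizin, and "N-" marks CKI from which the named compounds were left out, so that OmtOspc and MacOmtOspc hold those compounds alone. All groups are the same line in the same serum-containing medium, so they describe a single cell model, and untreated cells received none of the mixtures. No group is labelled as a vehicle control, so values against untreated cells could include an effect of the vehicle, which was not tested. The submitters call the 3 libraries of a group biological replicates, but nothing states that they came from separate cultures, so the p-values measure the spread between these libraries, which may be partly technical.

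Integrins are receptors for the extracellular matrix that span the cell membrane as a pair of subunits, an alpha and a beta chain. The alpha chain largely sets which matrix protein is bound, and the beta chain tail recruits talin, kindlin and other adaptors that couple the receptor to actin in focal adhesions. ITGB1 pairs with most alpha chains. With ITGA1 or ITGA2 it forms collagen receptors, with ITGA3 or ITGA6 laminin receptors, and with ITGA5 the classical fibronectin receptor. ITGAV pairs with ITGB3, ITGB5 and other beta chains in receptors for proteins that carry the RGD tripeptide, such as vitronectin, and ITGA6 pairs with ITGB4 in hemidesmosomes, which anchor epithelial cells through keratin filaments. Breast cancer cells use these receptors to attach, spread and migrate.

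Total counts were between 17673537 and 26138924 per library, with a median of 22568666.5. Values below are CPM, counts relative to the TMM-adjusted size of the library, and fold changes are on the log2 scale with their standard error (SE). A gene was called higher or lower where the adjusted p of edgeR's quasi-likelihood test, by Benjamini and Hochberg's method over all the genes of that comparison, was under 0.05. Markers of a mesenchymal breast cancer line were present in every library (VIM at 490 to 1562 CPM, CD44 at 328 to 670 CPM), while ESR1 and PGR had at most 8 and 2 counts. Of the other luminal markers GATA3 ran from 5.22 to 45.4 CPM, EPCAM from 6.25 to 27.3 and CDH1 from 0.049 to 7.2. PTPRC, CD3E and CDH5, which define leukocytes and endothelium, had at most 10, 4 and 5 counts, but CD14 reached 28.6 CPM, PECAM1 5.5 and VWF 1.77. The summed level of the 5 line markers (VIM, CD44, AXL, CAV1 and KRT18) was itself lower with CKI. It was 2318 to 2438 CPM against 4214 to 4454 in untreated cells at 24 h. At 48 h it was 2075 to 2173 against 3706 to 3743 in batch 1 and 2084 to 2153 against 4058 to 4440 in batch 2. The sum was also lower with every mixture, at 2572 to 3938, 1517 to 2445 and 1896 to 2350 CPM in these blocks. Singly, with CKI 3 of the 5 were called lower and 0 higher at 24 h, and 4 lower and 1 higher at 48 h in each batch. Across all groups the 5 luminal markers summed to 16.1 to 64.4 CPM, the 3 leukocyte markers to 0.784 to 28.8, the 3 endothelial markers to 0.717 to 6.41 and the 4 fibroblast markers to 13 to 78.7. With CKI the 3 luminal markers tested were all lower in each block, and the 2 endothelial markers tested were both higher at 48 h. Of the 3 fibroblast markers tested, 2 were higher with CKI at 48 h in batch 1 and 3 in batch 2, and none was lower. The 1 leukocyte marker tested was lower in 10 of 15 comparisons with untreated cells and higher in none. What these shifts contribute to the integrin results was not tested. At 24 h, 3 libraries whose columns carry no replicate number (CKI replicate 1, N-MacOmtOspc replicate 2 and OmtOspc replicate 2) departed from their group toward batch 2, with slopes of 0.576 to 0.669 over 529 genes that differ between the batches, against -0.414 to 0.109 for the other 33 libraries of batch 1. Calls at 24 h that changed without them are given beside the results. The exons of ITGA1 share 475 bases with PELO on the same strand in the GENCODE annotation, so reads there could not be assigned to either gene with certainty. No other member shares exon bases with a gene in the table.

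RefSeq (GRCh38.p14) gave a promoter window for 7 of the 10 members, and ITGA3, ITGB3 and ITGB4 are named only. The runs of 4 members are shown, those of 2 members that were higher with CKI in every block (ITGA2 and ITGAV) and 2 that were lower with most mixtures (ITGB1 and ITGB5). Each run gives the bases before the annotated exons, 5′ to 3′ on the gene's strand, with motif matches in capitals.
ITGA2, chr5:52989102-52989325, plus strand, 224 bases: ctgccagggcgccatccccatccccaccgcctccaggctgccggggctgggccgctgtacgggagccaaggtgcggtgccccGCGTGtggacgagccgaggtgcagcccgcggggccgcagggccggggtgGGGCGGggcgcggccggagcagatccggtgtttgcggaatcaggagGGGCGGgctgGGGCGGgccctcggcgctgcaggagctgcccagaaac
ITGAV, chr2:186589806-186590055, plus strand, 250 bases: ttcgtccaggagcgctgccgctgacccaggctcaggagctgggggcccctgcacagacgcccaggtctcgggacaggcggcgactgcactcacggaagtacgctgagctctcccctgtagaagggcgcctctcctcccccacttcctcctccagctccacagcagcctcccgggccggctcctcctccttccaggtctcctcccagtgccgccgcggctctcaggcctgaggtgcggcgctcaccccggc
ITGB1, chr10:32958233-32958480, minus strand, 248 bases: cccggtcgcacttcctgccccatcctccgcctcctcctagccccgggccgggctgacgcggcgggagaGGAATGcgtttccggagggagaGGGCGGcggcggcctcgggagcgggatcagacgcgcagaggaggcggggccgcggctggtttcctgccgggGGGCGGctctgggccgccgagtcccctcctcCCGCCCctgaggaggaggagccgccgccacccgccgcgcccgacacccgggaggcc
ITGB5, chr3:124887828-124887934, minus strand, 107 bases: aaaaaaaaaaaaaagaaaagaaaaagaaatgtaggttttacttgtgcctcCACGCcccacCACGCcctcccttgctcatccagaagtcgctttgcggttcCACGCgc
The letters searched on both strands over the 250 bases before the start were TGANTCA (AP-1), GGAATG (TEAD), GGGCGG (Sp1) and GCGTG (the core of the aryl hydrocarbon receptor element). AP-1 letters were found in 0 of the 7 windows, against 6.57% of 35116 RefSeq windows of this length, and TEAD letters in 2 of 7, in ITGA5 and ITGB1, against 11.9%. Sp1 letters were found in 3 of 7 (ITGA2, ITGA5 and ITGB1) against 42.6%, and the aryl hydrocarbon receptor core in 4 of 7 (ITGA2, ITGA5, ITGA6 and ITGB5) against 32.2%. The ITGA2 window held 4 Sp1 matches, the ITGB1 window 3, and the ITGB5 window 3 matches to the receptor core. 1 of the 4 ITGA2 matches to Sp1 lies past the printed run, and no matches overlapped one another. Of the 250 bases of the ITGA5 window, 194 are annotated exon, and its TEAD and receptor core matches lie within them. The ITGB5 window was 1 of 3 for that gene, lies 387 bases from the principal transcript start and holds 143 exon bases. The ITGA6 window was 1 of 2 and lies 219 bases from that start, and ITGAV and ITGB1 also had 2 windows each. No searched letters occurred in the ITGAV or ITGA1 windows. A match is a description of these letters and not a binding site.

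Each treatment was set against untreated cells of its own time and batch to ask which subunits moved. With CKI, ITGA1, ITGA2, ITGA5, ITGAV and ITGB3 were higher and ITGB4 was lower in all 3 blocks. In RNA from whole cultures, fewer cells with a transcript and less of it per cell cannot be told apart. At 24 h CKI gave 5 members higher and 1 lower, where 30.0% of the 15191 genes tested were called in either direction. N-OmtOspc gave 2 higher and 2 lower where 62.1% of genes were called, and N-MacOmtOspc 4 higher and 3 lower where 45.0% were. OmtOspc gave 3 higher (16.7% of genes called) and MacOmtOspc 2 higher (10.5%), with no member lower in either. At 48 h in batch 1, 15513 genes were tested. CKI gave 6 members higher and 2 lower against 54.0% of genes called, N-OmtOspc 4 higher and 6 lower against 76.6%, and N-MacOmtOspc 5 higher and 3 lower against 71.1%. OmtOspc and MacOmtOspc each gave 3 higher and 4 lower, against 57.8% and 51.2%. In batch 2, 15115 genes were tested. CKI gave 7 members higher and 3 lower against 66.4% of genes called, N-Mac 4 higher and 5 lower against 72.4%, and N-Nme, N-Omt and N-Tri each 5 higher and 4 lower, against 71.3%, 78.2% and 72.2%. In total 22 of 50 values were called at 24 h, 40 of 50 at 48 h in batch 1 and 46 of 50 in batch 2.

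The share of members called was above the share of all genes in each of the 15 comparisons except N-OmtOspc at 24 h, where it was 4 of 10 against 62.1%. Many of these shares lie near that of all genes, such as 8 of 10 against 71.1% for N-MacOmtOspc at 48 h. Members and all genes were not matched for level, and the comparisons of a block share their untreated libraries. The counts are therefore not read as a property of the members. The members did not shift as a block. Their median log2 fold change with CKI was 0.48, 0.52 and 0.37 at 24 h, at 48 h in batch 1 and at 48 h in batch 2, against 0.02, 0.01 and -0.01 for all genes tested. With the mixtures the member median ran from -0.35 for N-OmtOspc at 48 h to 0.37 for OmtOspc at 24 h, while the median of all genes stayed between -0.01 and 0.03. ITGA5 was higher in 15 of 15 comparisons, ITGB3 in 13, ITGA2 in 11 and ITGA1 in 10, and none of these 4 was lower in any. ITGB4 was lower in 13 and higher in none, ITGB1 was lower in 10 and higher in 1, and ITGB5 was lower in 9 and higher in 1. ITGA3 was higher in 6 and lower in 6, ITGA6 higher in 1 and lower in 6, and ITGAV higher in 5 and lower in 1.

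**Figure D1:**
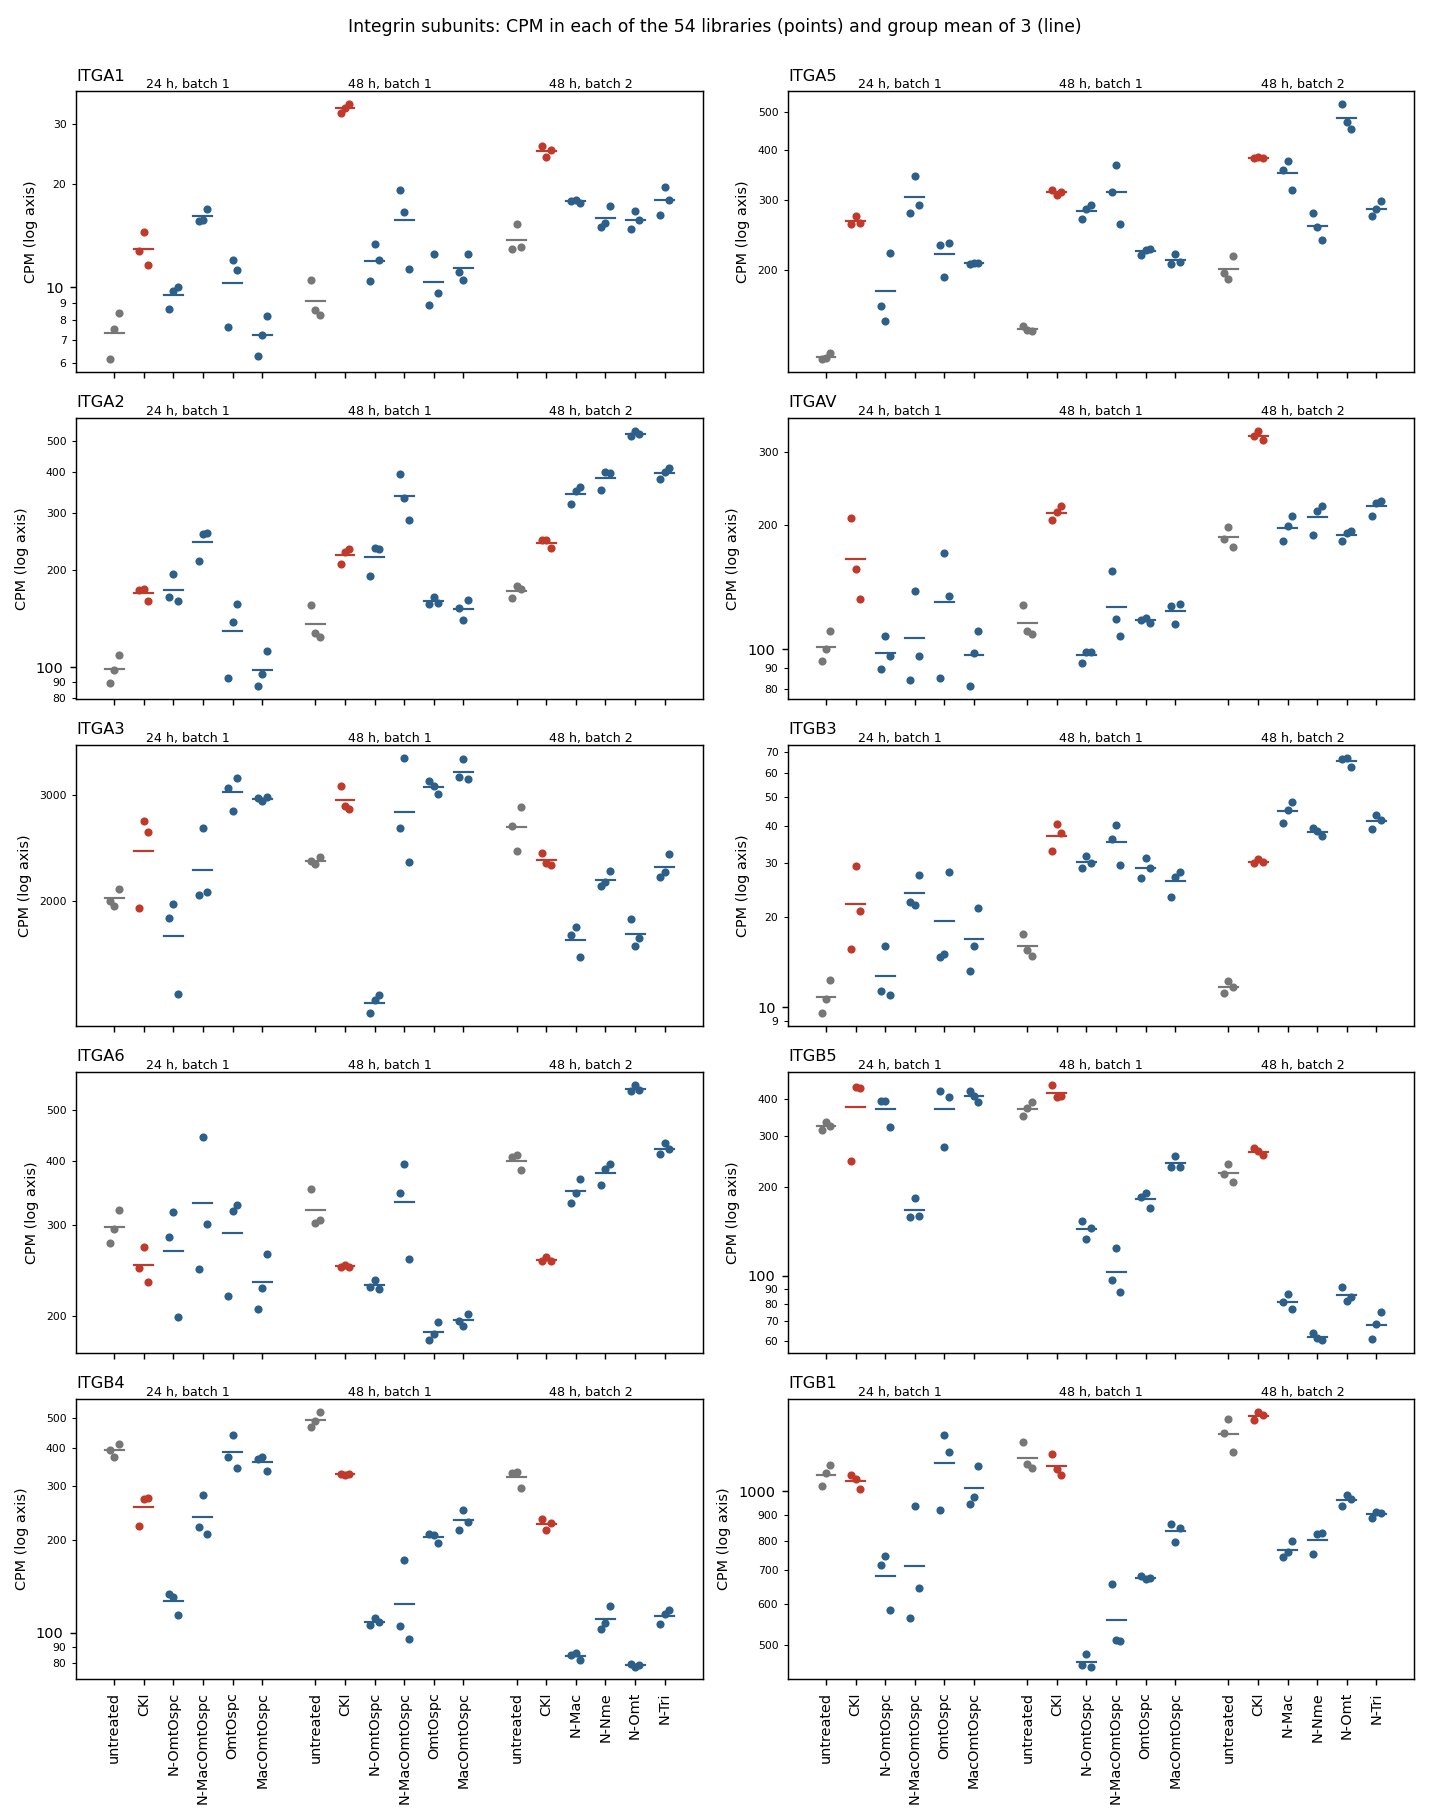
Level of each integrin subunit gene in all 54 libraries, in CPM on a log axis, by treatment group and block. Each point is a library and each horizontal bar the mean of the 3 libraries of a group, grey for untreated cells, red for CKI and blue for the mixtures. ITGA5 lies above untreated in every treated group, and ITGB4 and ITGB5 drop furthest with the mixtures at 48 h.

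**Figure D2:**
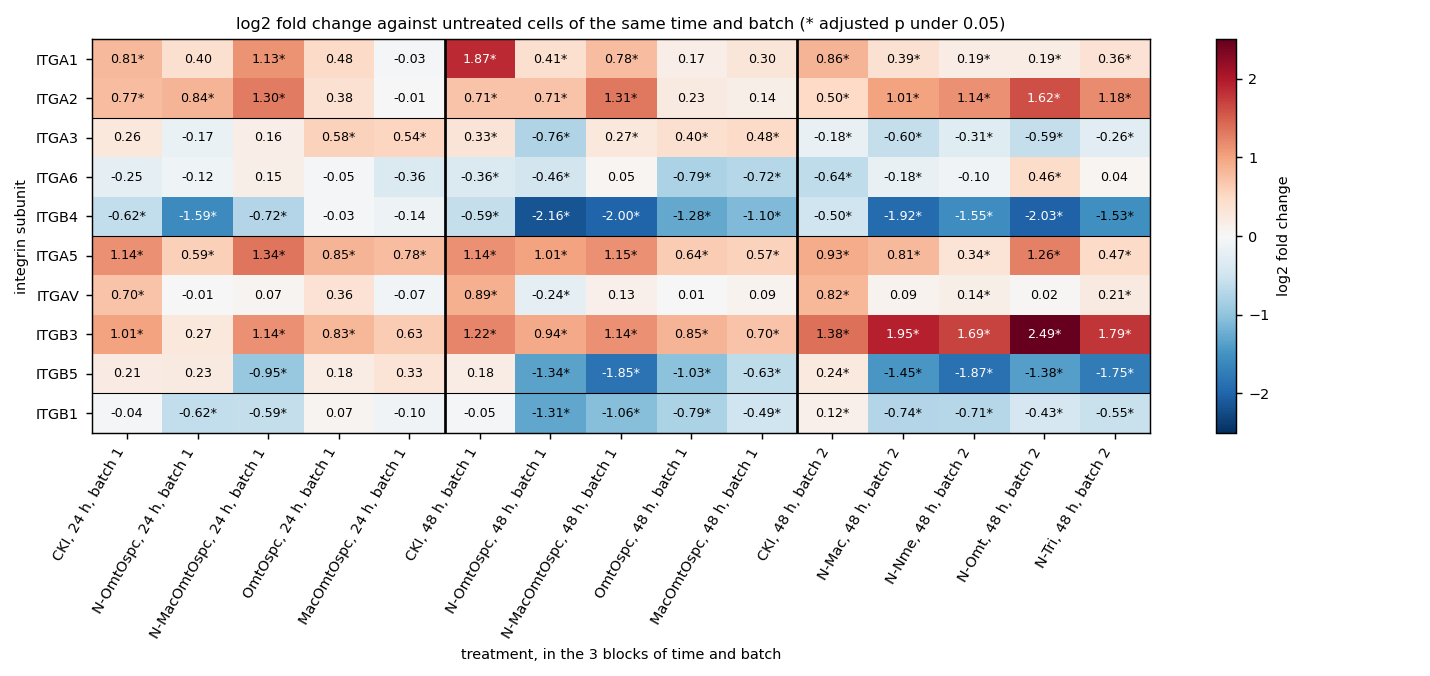
Log2 fold change of each member against untreated cells of the same time and batch, for the 15 treatments, printed in each cell and shown as colour (red higher, blue lower). An asterisk marks an adjusted p under 0.05. ITGA1, ITGA2, ITGA5 and ITGB3 are positive wherever they were called, and ITGB4 is negative wherever it was called.

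The collagen receptor subunits ITGA1 and ITGA2 both rose with CKI, but the mixtures separated them. ITGA1, the alpha chain of a receptor for basement membrane collagen, was read at 6.16, 7.55 and 8.40 CPM in untreated cells and at 12.8, 14.5 and 11.6 CPM with CKI at 24 h. Untreated cells at 48 h in batch 1 gave 10.5, 8.58 and 8.30 CPM, and CKI 32.3, 33.5 and 34.3 CPM. In batch 2 the values were 12.9, 15.3 and 13.2 CPM without and 25.8, 24.0 and 25.1 CPM with CKI. No CKI library overlapped the untreated libraries of its block, and the CKI libraries of batch 1 at 48 h were the highest of all 54. The log2 fold change was 0.81 (SE 0.17, adjusted p = 0.00198) at 24 h, 1.87 (SE 0.15, adjusted p = 1.01e-09) and 0.86 (SE 0.078, adjusted p = 3.03e-11) at 48 h. At 24 h N-MacOmtOspc, at 15.7 to 17 CPM, lay above the CKI libraries (log2 fold change 1.13, SE 0.17, adjusted p = 6.64e-05), though it was not called against CKI (0.32, adjusted p = 0.148). N-OmtOspc at 24 h (0.40, adjusted p = 0.0538) was called without the 3 unnumbered libraries (0.39, adjusted p = 0.0485). At 48 h the mixtures gave smaller rises than CKI. In batch 1 at 48 h N-MacOmtOspc reached 19.2, 16.6 and 11.3 CPM (log2 fold change 0.78) and N-OmtOspc 10.4, 13.4 and 12.0 CPM (0.41), the latter overlapping untreated cells. OmtOspc and MacOmtOspc were not called at either time, with values from -0.03 to 0.48, but OmtOspc at 24 h was without its replicate 1 (0.66, adjusted p = 0.00992) and MacOmtOspc at 48 h in 1 of 18 refits. In batch 2 the 4 single removals gave 0.19 to 0.39, all called, with N-Nme at 15.0 to 17.3 CPM and N-Omt at 14.8 to 16.7 CPM overlapping the untreated libraries. The calls for N-Nme and N-Omt were lost in 3 and 4 of the 18 refits that left out a library, and that for N-OmtOspc at 48 h in 4. Part of this signal could come from PELO reads, which was not tested.

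ITGA2, the alpha chain of the main receptor for fibrillar collagen on epithelial cells, rose more with N-MacOmtOspc and the 4 single removals than with CKI, while N-OmtOspc was not called against CKI at 24 h (0.07, adjusted p = 0.718) or 48 h (-0.001, adjusted p = 0.995). It was read at 89.5, 97.97 and 109 CPM in untreated cells at 24 h and at 174, 175 and 159.6 CPM with CKI. The untreated libraries of batch 2 gave 164, 178 and 174 CPM, CKI 247, 247 and 234 CPM, and N-Omt 519, 536 and 526 CPM. N-Omt held the 3 highest libraries of the series. The log2 fold change was 0.77 (SE 0.16, adjusted p = 0.00187), 0.71 (SE 0.11, adjusted p = 6.98e-06) and 0.50 (SE 0.053, adjusted p = 9.7e-10) with CKI in the 3 blocks, and 1.62 (SE 0.053, adjusted p = 9.92e-23) with N-Omt. N-Mac, N-Nme and N-Tri gave 1.01, 1.14 and 1.18. N-MacOmtOspc gave 1.30 at 24 h and 1.31 at 48 h, and N-OmtOspc 0.84 and 0.71. OmtOspc (0.38 and 0.23) and MacOmtOspc (-0.01 and 0.14) were not called at either time. Without OmtOspc replicate 1, which read 92.6 CPM beside 138 and 157 CPM, the value of OmtOspc at 24 h was 0.57 with an adjusted p of 0.00861, and at 48 h OmtOspc was called in 4 of 18 refits.

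Among the subunits of RGD receptors, ITGA5 and ITGB3 rose, ITGAV rose mainly with whole CKI, and ITGB5 fell with the mixtures. ITGA5, the fibronectin receptor alpha chain, was read at 119, 120 and 123 CPM in untreated cells and at 261, 274 and 263 CPM with CKI at 24 h. After 48 h in batch 1 the values were 145, 142 and 141 CPM without and 318, 309 and 313 CPM with CKI, and in batch 2 196, 189.5 and 218 CPM without and 382, 384 and 383 CPM with it. In none of the 15 comparisons did a treated library of ITGA5 overlap the untreated ones. The log2 fold changes with CKI were 1.14 (SE 0.13, adjusted p = 1.09e-05), 1.14 (SE 0.085, adjusted p = 2.54e-10) and 0.93 (SE 0.065, adjusted p = 6.39e-14). The mixtures gave 0.34 for N-Nme to 1.34 for N-MacOmtOspc at 24 h. N-Omt, at 522, 472 and 451 CPM, gave 1.26 (SE 0.065, adjusted p = 1.14e-17). OmtOspc and MacOmtOspc, which hold purified compounds only, also raised ITGA5, by 0.85 and 0.78 at 24 h and 0.64 and 0.57 at 48 h.

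ITGB3, the beta chain of the vitronectin receptor with ITGAV, was read at low levels and showed the largest rise of any member. Untreated cells of batch 2 gave 11.2, 12.2 and 11.7 CPM, CKI 30.0, 31.0 and 30.3 CPM, and N-Omt 66.6, 67.2 and 62.8 CPM. The log2 fold change was 1.38 (SE 0.07, adjusted p = 3.22e-17) with CKI and 2.49 (SE 0.067, adjusted p = 3.62e-25) with N-Omt, a fold of 5.6. N-Mac, N-Tri and N-Nme gave 1.95, 1.79 and 1.69, so that every removal mixture of batch 2 lay above CKI, without overlap. In batch 1 at 48 h the mixtures did not lie above CKI. There CKI gave 33.1, 40.5 and 37.8 CPM against 17.5, 15.5 and 14.8 CPM (log2 fold change 1.22, SE 0.11, adjusted p = 4.07e-09), and the mixtures 0.70 to 1.14, all called. At 24 h CKI gave 15.6, 29.4 and 20.9 CPM against 9.58, 10.6 and 12.3 CPM, a log2 fold change of 1.01 (SE 0.27, adjusted p = 0.00915) that was not called without CKI replicate 2 (0.75, adjusted p = 0.0611). N-MacOmtOspc at 24 h gave 1.14 (adjusted p = 0.00253), beside 1.01 for CKI, and the pair overlapped. The OmtOspc value at 24 h, 0.83 (adjusted p = 0.0435), was lost in 9 of 18 refits and fell to 0.45 (adjusted p = 0.297) without OmtOspc replicate 3.

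ITGAV, the alpha chain shared by the vitronectin receptors, was higher with CKI in every block and near its untreated level with the mixtures. At 48 h in batch 1 untreated cells gave 128, 111 and 109 CPM and CKI 205, 215 and 222 CPM, and in batch 2 the values were 185, 197 and 177 CPM without and 329, 337 and 320 CPM with CKI. The log2 fold changes were 0.89 (SE 0.097, adjusted p = 9.1e-08) and 0.82 (SE 0.056, adjusted p = 3.5e-14). At 24 h CKI replicate 1 read 208 CPM and the others 157 and 132 CPM, against 93.5, 100.2 and 111 CPM in untreated cells. This value, 0.70 (SE 0.23, adjusted p = 0.0288), was 0.50 (adjusted p = 0.149) when CKI replicate 1 alone was left out and 0.50 (adjusted p = 0.0377) when all 3 unnumbered libraries were, and it was not called without each untreated library in turn (adjusted p = 0.0508 to 0.101). Of the 12 mixture values, 3 were called. N-OmtOspc at 48 h was lower (-0.24, adjusted p = 0.0309), and N-Nme (0.14, adjusted p = 0.0218) and N-Tri (0.21, adjusted p = 0.00101) were higher. The N-Nme libraries overlapped the untreated ones, and that call was lost in 4 of 18 refits. The N-OmtOspc call was lost in 2 of 18.

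ITGB5, the beta chain that pairs with ITGAV to bind vitronectin, went opposite ways with CKI and with the mixtures at 48 h. In batch 2 untreated cells gave 222, 240.5 and 209 CPM, CKI 272, 266 and 257 CPM, and N-Nme 63.9, 61.3 and 60.4 CPM. CKI lay above the untreated libraries (log2 fold change 0.24, SE 0.059, adjusted p = 0.000539) and N-Nme far below them (-1.87, SE 0.064, adjusted p = 5.25e-22). N-Tri, N-Mac and N-Omt gave -1.75, -1.45 and -1.38. In batch 1 CKI gave 448, 406 and 408 CPM against 350, 374 and 389.8 CPM, which was not called (0.18, adjusted p = 0.109), though it was without N-MacOmtOspc replicate 2 (adjusted p = 0.0141). N-MacOmtOspc gave 96.6, 125 and 87.8 CPM, a log2 fold change of -1.85 (SE 0.098, adjusted p = 1.33e-13), and N-OmtOspc, OmtOspc and MacOmtOspc gave -1.34, -1.03 and -0.63. At 24 h only N-MacOmtOspc was called (159, 184 and 159.6 CPM against 314, 333 and 324 CPM, -0.95, adjusted p = 0.000663). CKI replicate 1 at 24 h read 246 CPM beside 442 and 436 CPM, and without the 3 unnumbered libraries the 4 other treatments were all called higher, CKI by 0.43 (adjusted p = 0.00413), OmtOspc by 0.35 (adjusted p = 0.0193), MacOmtOspc by 0.33 (adjusted p = 0.0163) and N-OmtOspc by 0.23 (adjusted p = 0.0347).

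The laminin receptor subunits did not move together. ITGB4, the beta chain of the hemidesmosomal laminin receptor, fell with CKI and, at 48 h, further with every mixture. Untreated cells gave 394, 373 and 412 CPM at 24 h and CKI 223, 274 and 274 CPM. At 48 h in batch 1 the untreated libraries read 469, 489.7 and 525 CPM, CKI 328, 327.5 and 329.9 CPM, and N-OmtOspc 106, 112 and 109 CPM. The groups did not overlap, and CKI lay between untreated cells and N-OmtOspc. The log2 fold changes with CKI were -0.62 (SE 0.13, adjusted p = 0.00181), -0.59 (SE 0.13, adjusted p = 0.000596) and, in batch 2, -0.50 (SE 0.054, adjusted p = 1.32e-09). N-OmtOspc gave -2.16 (SE 0.14, adjusted p = 2.15e-12) at 48 h, and N-MacOmtOspc, OmtOspc and MacOmtOspc -1.995, -1.28 and -1.10. In batch 2 N-Omt read 79.2, 77.7 and 78.9 CPM against 330.1, 334 and 297 CPM (-2.03, SE 0.057, adjusted p = 1.43e-24), and N-Mac, N-Nme and N-Tri gave -1.92, -1.55 and -1.53. OmtOspc (-0.03) and MacOmtOspc (-0.14) were not called at 24 h.

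ITGA6, the alpha chain that pairs with ITGB4 or ITGB1, fell with CKI at 48 h while its partner fell further with the mixtures. In batch 2 untreated cells read 406, 409.7 and 383 CPM and CKI 255, 260.1 and 256 CPM, a log2 fold change of -0.64 (SE 0.048, adjusted p = 4.38e-13). N-Omt, at 544, 560.5 and 548 CPM, lay above untreated cells (0.46, SE 0.047, adjusted p = 2.02e-10), and it was the only treatment of the 15 in which ITGA6 was called higher. N-Mac was lower by 0.18 on the log2 scale and N-Nme and N-Tri were not called. In batch 1 at 48 h CKI read 249, 252 and 248.5 CPM against 352.5, 303 and 308 CPM, a log2 fold change of -0.36 (SE 0.1, adjusted p = 0.00402). OmtOspc (180, 184.5 and 195 CPM, -0.79) and MacOmtOspc (196, 191 and 202 CPM, -0.72) fell further than CKI, N-OmtOspc gave -0.46, and N-MacOmtOspc (346, 395 and 258 CPM) was not called. Without its replicate 3 N-MacOmtOspc was higher by 0.21 (adjusted p = 0.0137). No treatment was called for ITGA6 at 24 h, where N-MacOmtOspc ranged from 247 to 444 CPM.

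ITGA3, the alpha chain of the main laminin receptor with ITGB1, changed sign with the mixture and the batch. It was the most abundant member, at 2327, 2306 and 2365 CPM in untreated cells at 48 h in batch 1 and at 3097, 2870 and 2835 CPM with CKI. N-OmtOspc lay below untreated cells at 1304, 1372 and 1396 CPM, and OmtOspc and MacOmtOspc above them at 3012 to 3161 and 3181 to 3436 CPM. The log2 fold changes were 0.33 (SE 0.097, adjusted p = 0.00635) with CKI, -0.76 (SE 0.098, adjusted p = 3.11e-07) with N-OmtOspc, and 0.40 and 0.48 with OmtOspc and MacOmtOspc. N-MacOmtOspc (2642, 3452 and 2323 CPM, 0.27, adjusted p = 0.0186) overlapped the untreated libraries and was 0.09 (adjusted p = 0.209) without its replicate 2. In batch 2, where untreated cells read 2661, 2421 and 2867 CPM, all 5 treatments were lower, from -0.18 with CKI (2399, 2308 and 2298 CPM, adjusted p = 0.0075) to -0.60 with N-Mac. The CKI call in batch 2 was lost without untreated replicate 3 (-0.13, adjusted p = 0.0594). At 24 h OmtOspc (0.58, adjusted p = 0.0128) and MacOmtOspc (0.54, adjusted p = 0.0251) were higher, and these calls were lost in 3 and 6 of 18 refits. CKI at 24 h was not called (0.26), and was called without the 3 unnumbered libraries (0.39, adjusted p = 0.0297).

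ITGB1, the beta chain shared by the collagen, fibronectin and most laminin receptors, lay near its untreated level with CKI and fell with every mixture at 48 h. In batch 1 at 48 h untreated cells read 1251, 1132 and 1112 CPM and CKI 1186, 1105 and 1077 CPM, which overlapped (-0.05, SE 0.084, adjusted p = 0.621). N-OmtOspc read 457, 480.4 and 453 CPM, below every untreated library, a log2 fold change of -1.31 (SE 0.085, adjusted p = 4.05e-12). N-MacOmtOspc, OmtOspc and MacOmtOspc gave -1.06, -0.79 and -0.49. In batch 2 CKI (1381, 1434 and 1409 CPM) was called higher than untreated cells (1300, 1386 and 1193 CPM) by 0.12 (adjusted p = 0.0381), with overlapping libraries, and this call was lost in 7 of 18 refits, down to 0.06 (adjusted p = 0.295) without untreated replicate 3. N-Mac, N-Nme, N-Tri and N-Omt gave -0.74, -0.71, -0.55 and -0.43 without overlap. At 24 h N-OmtOspc (-0.62, adjusted p = 0.00401) and N-MacOmtOspc (-0.59, adjusted p = 0.00883) were lower, the latter with 565, 934 and 646 CPM and not called without its replicate 1 (-0.45, adjusted p = 0.053). Without the 3 unnumbered libraries, of which its replicate 2 at 934 CPM is one, the N-MacOmtOspc value was -0.83 (adjusted p = 0.000185). CKI, OmtOspc and MacOmtOspc were not called at 24 h.

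Each mixture was then set against whole CKI of the same block. For the "N-" mixtures this sets CKI without the named compounds against whole CKI, and for OmtOspc and MacOmtOspc the named compounds alone. No group is labelled as CKI put together again from its parts. An effect of preparing the mixtures therefore cannot be told apart from that of the left-out compounds. These comparisons share their CKI libraries with the CKI values above. At 24 h N-OmtOspc gave 7 members lower than CKI and none higher, where 58.7% of genes were called, N-MacOmtOspc 1 higher and 3 lower against 35.7%, OmtOspc 1 higher against 8.49%, and MacOmtOspc 1 higher and 3 lower against 11.6%. At 48 h in batch 1 N-OmtOspc gave 7 lower against 73.1%, N-MacOmtOspc 2 higher and 5 lower against 67.2%, and OmtOspc and MacOmtOspc 9 lower each against 51.8% and 47.6%, with no member higher in 3 of these 4. In batch 2 N-Mac, N-Nme and N-Tri each gave 3 higher and 6 lower, against 69.4%, 71.5% and 71.4%, and N-Omt 4 higher and 6 lower against 76.3%. Summed over blocks, 16 of 40 values were called at 24 h (3 higher, 13 lower), 32 of 40 at 48 h in batch 1 (2 higher, 30 lower) and 37 of 40 in batch 2 (13 higher, 24 lower). Without the 3 unnumbered libraries the 24 h calls of ITGA2 with N-MacOmtOspc (0.51, adjusted p = 0.0539) and ITGA1 with N-OmtOspc (-0.42, adjusted p = 0.0526) were lost, and ITGB4 with N-MacOmtOspc was called lower (-0.33, adjusted p = 0.0197).

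**Figure D3:**
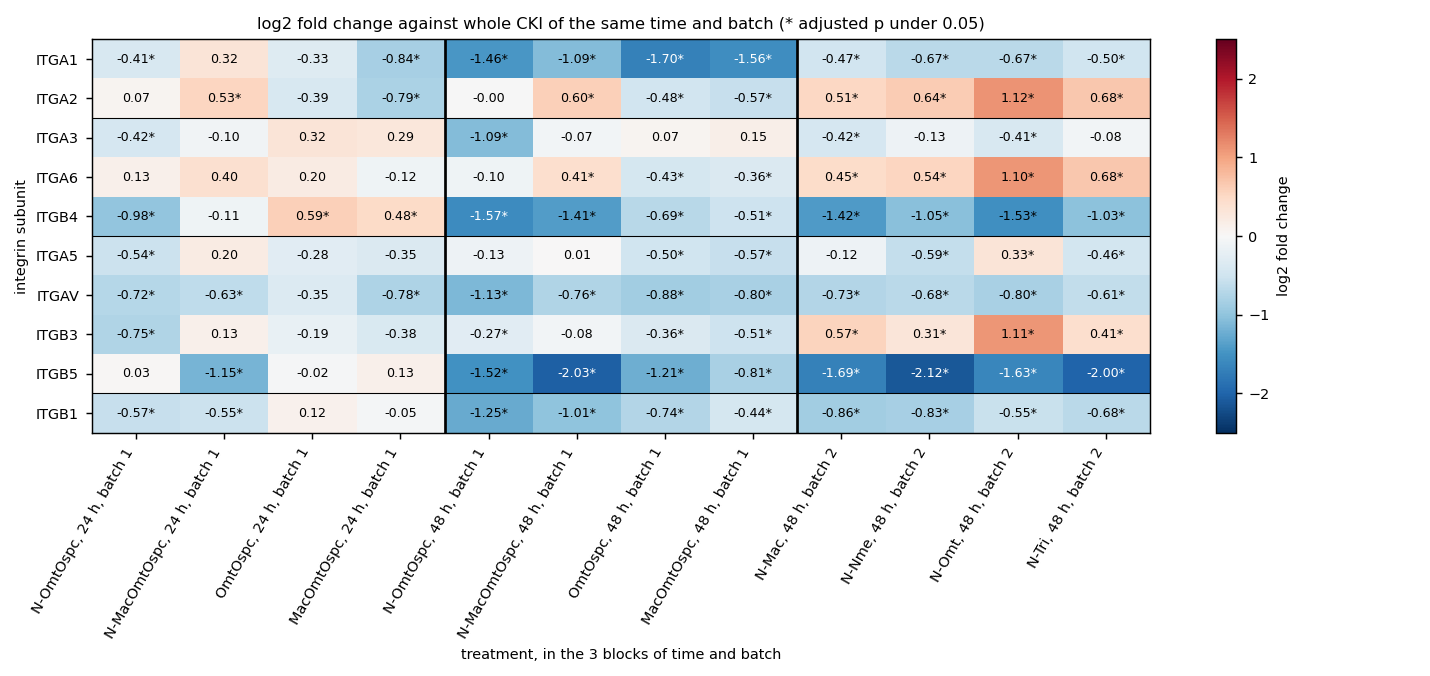
Log2 fold change of each member in each mixture against whole CKI of the same time and batch, for the 12 comparisons, printed in each cell and shown as colour (red higher, blue lower). An asterisk marks an adjusted p under 0.05. ITGA1, ITGAV, ITGB1 and ITGB5 are below CKI wherever they were called, and ITGA2, ITGA6 and ITGB3 are above CKI in all 4 mixtures of batch 2.

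ITGAV was lower than with CKI in 11 of 12 comparisons, ITGA1 and ITGB1 in 10 and ITGB5 in 9, and none of these 4 was higher in any. Among the 24 h calls in these tallies, ITGAV was lost with MacOmtOspc in 9 of 18 refits that left out a library, with N-MacOmtOspc in 8 and with N-OmtOspc in 2, ITGA1 with N-OmtOspc in 10, and ITGB1 with N-MacOmtOspc in 2. ITGB5 gave the largest differences. It read 272, 266 and 257 CPM with CKI and 63.9, 61.3 and 60.4 CPM with N-Nme, a log2 difference of -2.12 (SE 0.064, adjusted p = 3.85e-23), and N-Tri, N-Mac and N-Omt gave -1.996, -1.69 and -1.63. N-MacOmtOspc at 48 h in batch 1 gave -2.03 (SE 0.098, adjusted p = 4.85e-14) and MacOmtOspc the smallest difference, -0.81. ITGA1 was lower by 1.09 to 1.70 on the log2 scale in the 4 mixtures at 48 h in batch 1, and by 0.47 to 0.67 in batch 2. ITGAV was lower by 0.76 to 1.13 and by 0.61 to 0.80 in the same blocks, with no mixture library as high as a CKI library. ITGB1 was lower by 0.44 to 1.25 and by 0.55 to 0.86.

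ITGA2, ITGA6 and ITGB3 formed the opposite set in batch 2, being higher than with CKI in all 4 single removals. N-Omt gave the largest value for each, 1.12 (SE 0.053, adjusted p = 1.3e-18) for ITGA2, 1.10 (SE 0.048, adjusted p = 2.29e-19) for ITGA6 and 1.11 (SE 0.06, adjusted p = 4.08e-17) for ITGB3. In the N-Omt libraries ITGA6 read 544 to 560.5 CPM, against 255 to 260.1 CPM with CKI. N-Mac, N-Nme and N-Tri gave 0.51 to 0.68 for ITGA2, 0.45 to 0.68 for ITGA6 and 0.31 to 0.57 for ITGB3. In batch 1 the same genes differed by mixture. N-MacOmtOspc at 48 h was above CKI for ITGA2 (0.60) and ITGA6 (0.41, or 0.27 without its replicate 2), and OmtOspc and MacOmtOspc were below it for all 3. ITGA5 was above CKI with N-Omt (0.33, adjusted p = 2.69e-05) and below it with N-Nme (-0.59) and N-Tri (-0.46), while N-Mac was not called (-0.12, SE 0.064, adjusted p = 0.101). ITGB4 was below CKI in all 8 comparisons at 48 h, by 0.51 to 1.57 on the log2 scale, but above it with OmtOspc (0.59, adjusted p = 0.00894) and MacOmtOspc (0.48, adjusted p = 0.0235) at 24 h. The former was 0.39 (adjusted p = 0.0266) without the 3 unnumbered libraries, and the latter call was lost in 3 of 18 refits. ITGA3 was below CKI in 4 comparisons and above it in none, with N-OmtOspc at 48 h the largest difference (-1.09, SE 0.098, adjusted p = 1.31e-09). Its N-OmtOspc call at 24 h (-0.425, adjusted p = 0.0206) was lost in 3 of 18 refits, and N-Nme was called lower in 4. Without N-MacOmtOspc 48 h replicate 2, ITGA3 was called lower with N-MacOmtOspc (-0.243, adjusted p = 0.00122) and higher with MacOmtOspc (0.15, adjusted p = 0.0255). The ITGB3 calls below CKI with N-OmtOspc at 24 and 48 h were each lost in 3 of 18.

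At 48 h untreated cells and CKI were sampled in both batches, so the repeat of the CKI effect could be tested. The effect differed between the batches for 3 of the 10 members, where 13.8% of genes were called. ITGA1 rose less in batch 2 than in batch 1, by 0.99 on the log2 scale (SE 0.12, adjusted p = 1.46e-05). The ITGA3 effect, positive in batch 1 and negative in batch 2, differed by -0.50 (SE 0.074, adjusted p = 0.000106), and ITGA6 fell further in batch 2, with a difference of -0.26 (SE 0.073, adjusted p = 0.0202) that was lost in 6 of 12 refits. The differences of the other 7 ran from -0.20 to 0.19 and were not called. The untreated cells themselves differed between the batches for 9 of 10 members, where 60.5% of genes were called. ITGAV (0.66), ITGA1 (0.56), ITGA5 (0.48), ITGA2 (0.32), ITGA6 (0.29) and ITGA3 (0.16) were higher in batch 2, and ITGB5 (-0.75), ITGB4 (-0.65) and ITGB3 (-0.47) lower. ITGB1 (0.13, adjusted p = 0.0503) was not called. N-OmtOspc, N-MacOmtOspc, OmtOspc and MacOmtOspc were sampled in batch 1 alone and the single removals in batch 2 alone, so a difference between these mixtures cannot be told apart from the batch.

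**Figure D4:**
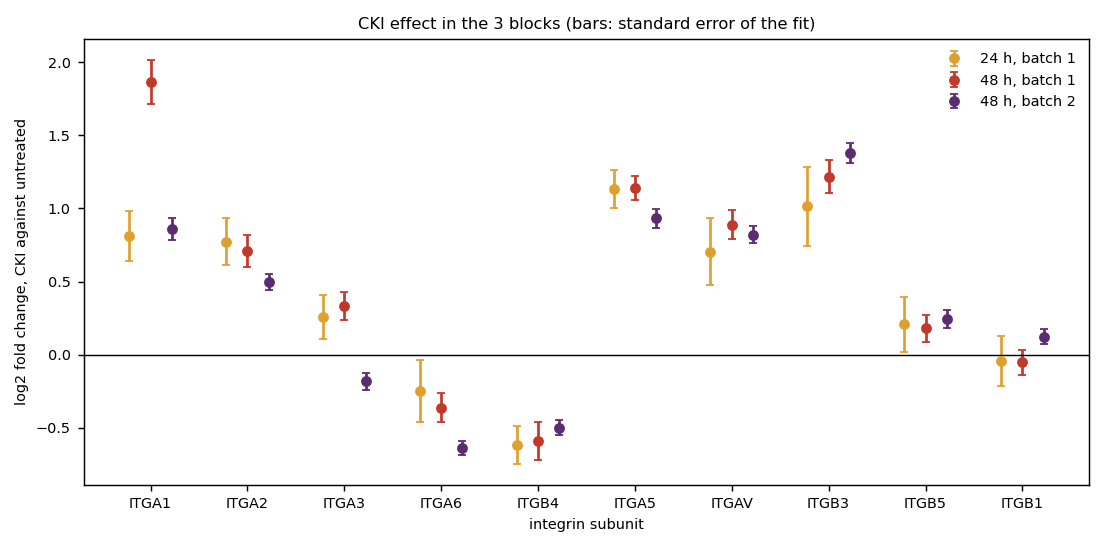
Log2 fold change of each member with CKI against untreated cells at 24 h and in the pair of batches at 48 h, with bars of 1 SE. ITGA1 and ITGA3 are the members whose values at 48 h lie furthest apart between the batches.

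In batch 1 the same 5 treatments were sampled at 24 and 48 h. For CKI the effect at 48 h differed from that at 24 h for 1 member, ITGA1 (1.07, SE 0.24, adjusted p = 0.0375), where 0.391% of genes were called, and that call was lost in 16 of 36 refits. The mixtures changed more over time. N-OmtOspc gave 1 member with a more positive and 4 with a more negative effect at 48 h, where 34.2% of genes were called, N-MacOmtOspc 2 more negative against 7.35%, OmtOspc 3 more negative against 8.06%, and MacOmtOspc 2 more negative against 2.59%. ITGB4 and ITGB5 were among them in all 4 mixtures. The difference for ITGB5 was -1.55 (SE 0.22, adjusted p = 4.26e-06) with N-OmtOspc, which read 395, 394 and 321 CPM at 24 h and 154, 133 and 146 CPM at 48 h. With OmtOspc ITGB5 went from 426, 275 and 406 CPM at 24 h, where the 275 CPM library is one of the 3 unnumbered ones and the others lay above the untreated libraries, to 186, 191 and 170.5 CPM at 48 h, a difference in effect of -1.20. ITGB4 differed by -1.25 with N-MacOmtOspc and -1.23 with OmtOspc. ITGB1 differed by -0.66 with N-OmtOspc and -0.84 with OmtOspc. In untreated cells 0 of 10 members were called between 24 and 48 h by edgeR, where 1.57% of genes were, although 3 had an unadjusted p under 0.05 (ITGA2, ITGB3 and ITGB4) and DESeq2 called 1. Without the 3 unnumbered libraries 1346 genes were called in place of 249, ITGA2 among them (0.46, adjusted p = 0.0421), and the effects of N-OmtOspc on ITGB3 (0.71, adjusted p = 0.0346) and of OmtOspc on ITGA6 (-0.66, adjusted p = 0.036) were then called to differ over time.

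**Figure D5:**
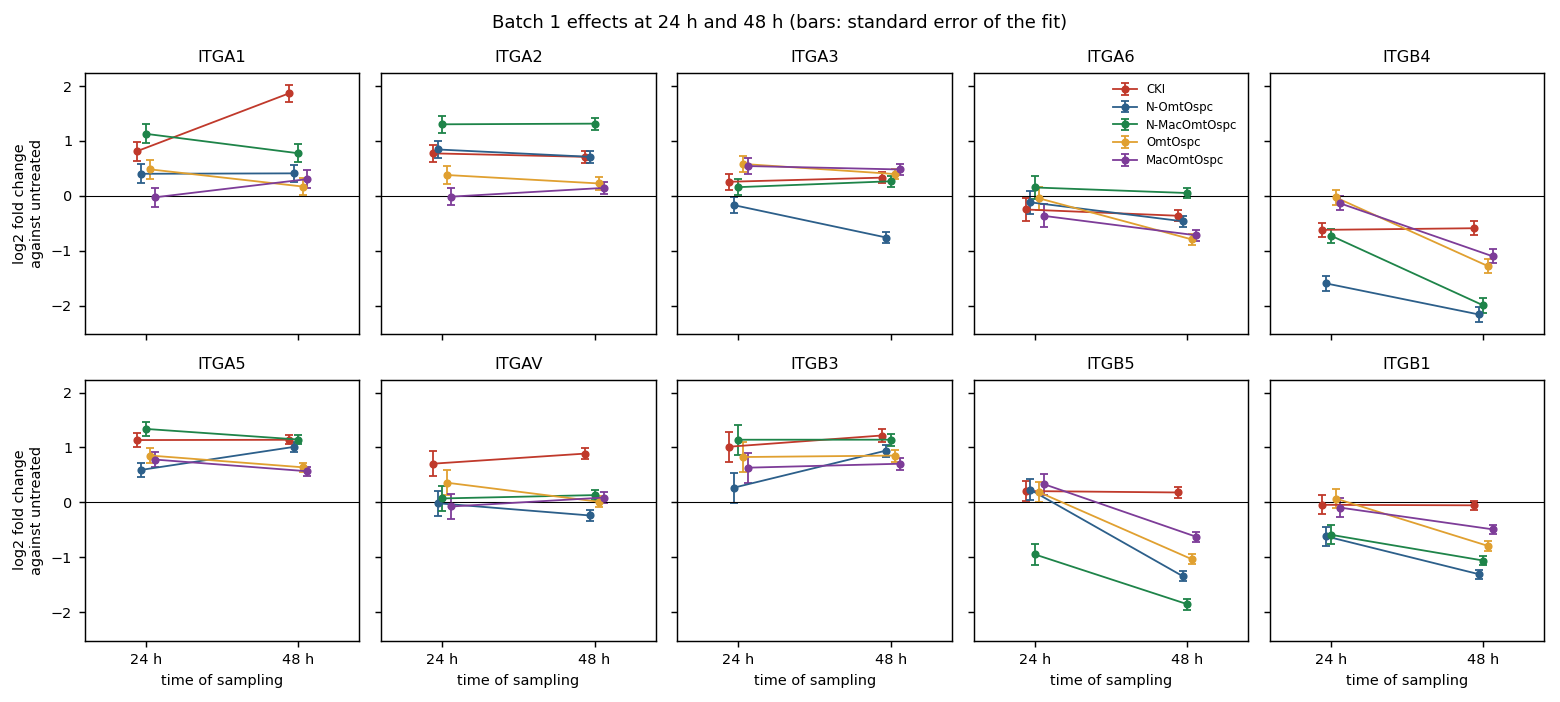
Log2 fold change against untreated cells at 24 h and at 48 h for the 10 members in the 5 treatments of batch 1, joined by lines, with bars of 1 SE. ITGB4 and ITGB5 slope down in the 4 mixtures, while with CKI only ITGA1 was called.

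The order of the levels was compared as CPM per kilobase of exon, from the union of annotated exons. In untreated cells ITGA3 was highest at 413 ± 14, 477 ± 6.12 and 542 ± 45.7 CPM per kilobase (SD, n = 3) in the 3 blocks, followed by ITGB1 at 274 ± 12.8, 296 ± 19.1 and 329 ± 24.6. ITGB5 (74 ± 2.23, 84.9 ± 4.59 and 51.2 ± 3.62) and ITGB4 (63.6 ± 3.16, 79.9 ± 4.59 and 51.8 ± 3.3) came next at 24 h, then ITGA6 (51.1 ± 3.81, 55 ± 4.69 and 68.4 ± 2.48). ITGB5 and ITGB4 overlapped at 48 h in both batches, and ITGA6 lay above both in batch 2. ITGA5 followed with means of 27.2, 32 and 45.3 CPM per kilobase. ITGAV (14.1, 16.1 and 25.8) and ITGA2 (12.6, 17.3 and 21.9) overlapped in batch 1 and ITGAV was above ITGA2 in batch 2. ITGB3 (2.47, 3.63 and 2.67) and ITGA1 (0.685, 0.849 and 1.28) were the lowest. The partner chains were thus at different levels, with ITGAV below ITGB5 in every block and above ITGB3.

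The other genes of the adhesion pathway were taken from lists by role, and the share of all genes called over the same 15 comparisons, weighted by the list genes tested, stands beside each total. Of 165 values over the RGD ligands, 21.2% were higher and 58.8% lower, where 27.9% and 27.8% of all genes were. Among 11 RGD ligands, all tested, 2 were higher and 5 lower with CKI at 24 h, 5 and 6 at 48 h in batch 1, and 3 and 7 in batch 2, with median log2 fold changes of -0.45, -0.35 and -0.28. THBS1, which encodes thrombospondin, was lower in 15 of 15 comparisons, with CKI log2 fold changes of -1.30, -1.56 and -1.01. FN1, fibronectin itself and the ligand of the ITGA5 receptor, was lower in 14 of 15, at 787 ± 47.7 CPM (SD, n = 3) in untreated cells and 473 ± 27.9 (SD, n = 3) with CKI at 48 h in batch 1 (log2 fold change -0.73) and -1.88 in batch 2. VTN, vitronectin, was lower in 11, and SPP1, osteopontin, was higher in 13 of 15, from 0.52 ± 0.0582 to 7.08 ± 0.606 CPM (SD, n = 3) in batch 2. Of 150 values over 10 collagen chains tested, 15 were higher and 72 lower, or 58% called, where 55.7% of all genes were (27.8% lower, against 48% here). COL1A2 was lower in 15 of 15 comparisons, at 43.7 ± 0.935 CPM (SD, n = 3) in untreated cells and 5.03 ± 0.227 (SD, n = 3) with CKI at 48 h in batch 1, COL5A1 was lower in 13, and COL3A1, at 4.81 CPM or less in every library, was higher in 5 and lower in 1. Of 150 values over the 10 laminin chains tested, 45 were higher and 52 lower, or 64.7% called against 55.7%. LAMB3, a chain of the epithelial laminin bound by the ITGA6 and ITGB4 pair, was higher in 13 of 15, by 0.93, 1.04 and 0.83 with CKI, LAMA1 was higher in 15 of 15, and LAMB1 was lower in 12.

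Inside the cell, the focal adhesion list of 20 adaptors and kinases gave 42 higher and 142 lower of 280 values, or 15% and 50.7%, where 27.8% and 27.7% of all genes were. With CKI 3 were higher and 4 lower of 19 at 24 h, 2 and 13 of 19 at 48 h in batch 1, and 4 and 13 of 18 in batch 2, where 30.0%, 54.0% and 66.4% of all genes were called, with medians of -0.22, -0.32 and -0.38. FERMT1, a kindlin that binds beta chain tails, was lower in 15 of 15 comparisons, from 10.4 ± 1.08 to 2.42 ± 0.231 CPM (SD, n = 3) with CKI at 48 h in batch 1. TNS3, a tensin that links beta chains to actin, was lower in 15 of 15, with CKI values of -1.63, -1.50 and -1.41. CRK, an adaptor, was higher in 11. Of the 6 regulators of integrin activity, RAP1A, the small GTPase upstream of talin, was higher in 12 and lower in 2 comparisons, APBB1IP, its effector, likewise, and FLNA, filamin, was lower in 8. Of the 9 trafficking genes tested, CAV1 was lower in 15 of 15, from 699 ± 24.1 to 251 ± 10.5 CPM (SD, n = 3) with CKI at 48 h in batch 1, and RAB21 was higher in 12. Over all 15 comparisons the activity list gave 36 higher and 17 lower of 90 values and the trafficking list 39 and 45 of 135, or 58.9% and 62.2% called against 55.7%.

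Membrane partners, the tetraspanins and other proteins that sit beside integrins, gave 18 higher and 34 lower of 90 values, or 57.8% called against 55.7%. With CKI 4 of the 6 were higher and none lower at 48 h in both batches, where 54.0% and 66.4% of all genes were called in either direction. CD82 was higher with CKI in all 3 blocks (0.47, 0.67 and 0.66) and lower in 8 of the 12 mixtures, and CD151, the partner of the laminin receptors, was lower in 9. Of the 5 hemidesmosome genes, 3 or 4 were tested, and 24 of 50 values were higher and 15 lower, or 78% called against 56.3%. COL17A1 was higher in 15 of 15 comparisons, from 10.8 ± 1.27 to 46.6 ± 1.03 CPM (SD, n = 3) with CKI at 48 h in batch 1. ITGB4, its partner in that structure, fell in 13. PLEC, plectin, which joins ITGB4 to keratin, was lower in 11, and KRT14, a basal keratin, had 8 to 14 counts in untreated libraries and 0 with CKI at 48 h in batch 1. Among the 16 other integrin subunits, 8 or 9 of which were tested, 33 of 130 values were higher and 39 lower, or 55.4% called against 55.1%. ITGA10, a collagen receptor chain, was higher with CKI at 48 h (1.96 and 0.82) and lower in all 12 mixtures, down to -3.53 with N-MacOmtOspc at 48 h. ITGB8, a partner of ITGAV, was lower in 12 comparisons and higher only with N-OmtOspc (2.49 and 0.98). ITGA11 was called higher in 9, on counts of at most 9 with CKI.

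The pattern over the 15 comparisons was used to rank the genes most like each member, among the 9782 genes whose mean level reached 10 CPM. These are descriptions, since the 5 treatments of a block share their untreated libraries and no chance level was computed for the best of the 9782 genes. ITGB1 and ITGB4 had a Pearson correlation of 0.843, ITGA2 and ITGA6 of 0.826, ITGB5 and ITGB4 of 0.784, and ITGA3 and ITGB4 of 0.734. ITGAV was nearest to ITGB1 (0.716) and ITGA1 to ITGAV (0.707), ITGB3 to ITGA2 (0.678), and ITGA5 to ITGA1 (0.568), the loosest of these. Other members went opposite ways, with -0.616 for ITGA2 and ITGB5, -0.599 for ITGA3 and ITGB3, and -0.595 for ITGA2 and ITGB4. Among all genes ITGB5 was most like IGFBP7 (0.979), MAN2B2 (0.974) and HTRA1 (0.971), ITGB1 most like SNORA104 (0.963), WLS (0.949) and LAMB1 (0.948), and ITGB4 most like ADAM8 (0.954), ARHGEF17 (0.952) and COL13A1 (0.95). ITGB3 was nearest to CLDND1 (0.946), ITGA3 to FMNL1 (0.938), ITGAV to MMD (0.931), ITGA6 to EMP1 (0.895), ITGA5 to SEMA4B (0.844) and ITGA1 to CST2 (0.785).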

How the data were processed

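MDA-MB-231 libraries were made from polyadenylated RNA and sequenced as paired reads. The authors deposited raw counts per gene, not normalized, for 27978 genes in 54 libraries. The submitters' processing notes name FastQC 0.11.4, Trim Galore 0.3.7, STAR 2.5.3a, Subread 1.5.2 with featureCounts, edgeR 3.22.3 and hg19. The strand setting of the counting is not given in the sources used here, so reads of genes that overlap could be lost or shared.

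Counts were analysed in R 4.3.3 with edgeR 4.0.16 (limma 3.58.1). Genes were kept with filterByExpr (minimum count 10), libraries were scaled by TMM, and each block of 18 libraries was fitted with glmQLFit and tested with glmQLFTest, with p-values adjusted by Benjamini and Hochberg's method over all genes of a comparison and a threshold of 0.05. There were 15 comparisons with untreated cells and 12 with CKI. The batch contrasts used the 12 untreated and CKI libraries at 48 h, and the time contrasts all 36 libraries of batch 1. The SE is the log2 fold change divided by the square root of F. Total counts of 17673537 to 26138924 per library set the precision, and no library was a copy of another of its group. Groups, batches and replicates came from the labels.

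The members and the gene lists were chosen with earlier results of these data known. All 10 members were named, together with, from each other list, the 2 genes called in most comparisons and the largest rise and fall with CKI at 48 h in batch 1. Exon lengths and overlaps came from GENCODE and promoters from RefSeq, both on GRCh38, and were matched by symbol. The alternatives were RLE size factors, library sizes alone, DESeq2 1.42.0, other filters, a replicate block, fits of 2 groups or of all 54 libraries, a log2 fold change of at least 1, and leaving out each library or the 3 unnumbered ones.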

Additional observations from a re-analysis of the deposited data

Results flagged for a closer look

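Between the batches at 48 h, the CKI effect differed for ITGA1 (-0.995, adjusted p = 1.46e-05), ITGA3 (-0.499, adjusted p = 0.000106) and ITGA6 (-0.261, adjusted p = 0.0202), each value being the log2 effect in batch 2 minus that in batch 1 from edgeR's interaction test.

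Between 24 and 48 h in batch 1, the same kind of test gave a difference for ITGA1 with CKI (1.07, adjusted p = 0.0375). With N-OmtOspc it gave differences for ITGA3 (-0.563, adjusted p = 0.0165), ITGA5 (0.444, adjusted p = 0.0277), ITGB1 (-0.661, adjusted p = 0.0074), ITGB4 (-0.537, adjusted p = 0.035) and ITGB5 (-1.55, adjusted p = 4.26e-06). ITGB4 and ITGB5 also differed with N-MacOmtOspc (-1.25, adjusted p = 0.000122, and -0.889, adjusted p = 0.0108) and with MacOmtOspc (-0.947, adjusted p = 0.00669, and -0.943, adjusted p = 0.0162). With OmtOspc, ITGB1 (-0.839, adjusted p = 0.00469), ITGB4 (-1.23, adjusted p = 0.000155) and ITGB5 (-1.2, adjusted p = 0.000721) differed. The ITGA5 and ITGB4 values with N-OmtOspc were lost in 7 and 8 of 36 refits without a library, and the ITGB5 value with MacOmtOspc was -0.91 (adjusted p = 0.0504) without MacOmtOspc 24 h replicate 1.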

How the results depend on the processing

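The 193 member values called against untreated cells or CKI kept their sign under every alternative that was run. Of 90 counts of called members under alternatives other than leaving out a library, 77 were within 1.5 times the main count. Requiring a log2 fold change of at least 1 as well gave 7 of 50, 16 of 50 and 18 of 50 calls against untreated cells in the 3 blocks (from 22, 40 and 46), 1, 13 and 11 of 40 against CKI (from 16, 32 and 37), 0 and 5 for the batch and time differences of the effects (from 3 and 13), and 0 for the untreated batches (from 9). With all 54 libraries in 1 fit the batch difference was called for 1 member (from 3). For untreated cells between 24 and 48 h, that fit, DESeq2 and leaving out the 3 unnumbered libraries each called 1 (from 0).

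Leaving out a library at a time gave 18 to 25, 38 to 44 and 42 to 47 calls against untreated cells, 11 to 16, 31 to 35 and 37 to 38 against CKI, 2 to 5 and 10 to 15 for the batch and time differences, and 0 to 1 and 9 to 10 for untreated cells over time and between batches. The call over time was ITGA2 without OmtOspc 24 h replicate 1 (0.46, adjusted p = 0.0307). Of 3474 refitted values of the called members, 96 lost their call.

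The numbers of the replicates were not treated as pairs, since in 0 of 15 treatments was the correlation of deviations over 0.1 in every pair (range -0.457 to 0.484). Of the 45 pairs 7 were over 0.1, and failing this rule does not show that the samples were unpaired. With a replicate block the counts were 24, 40 and 46 against untreated cells, 16, 32 and 38 against CKI, 3 and 13 for the batch and time differences, and 0 and 10 for untreated cells.

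Of 287 counts over all genes, 25 moved by more than 1.5 times. In 1 fit of all libraries the calls at 24 h against untreated cells went from 4562 to 7404 for CKI, from 2543 to 5640 for OmtOspc and from 1588 to 4001 for MacOmtOspc, those against CKI from 1290 to 3964 for OmtOspc and from 1761 to 4850 for MacOmtOspc, and the batch difference from 2048 to 260. With the 2 groups alone, MacOmtOspc against untreated cells at 24 h gave 5097, OmtOspc against CKI 330 and N-MacOmtOspc against CKI 3339 (from 5422). Without the 3 unnumbered libraries MacOmtOspc against untreated cells at 24 h gave 3108. The time difference for CKI went from 62 to 272 in the fit of all libraries, 173 with DESeq2, 40 without the filter and 186 without the unnumbered libraries. That for MacOmtOspc went from 410 to 995, 688 with DESeq2 and 1386 without these libraries, that for N-MacOmtOspc from 1166 to 2033 and 2281, and that for OmtOspc from 1278 to 2118 and 2194. Untreated cells over time went from 249 to 1136 in the fit of all libraries, 641 with DESeq2, 114 without the filter and 1346 without the unnumbered libraries. Scaling by library size alone moved the median of all genes for N-OmtOspc at 24 h by 0.305. ITGA1 and ITGB3 had the fewest counts of the members.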
